A study of Mus musculus with 9 samples.

Results

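The hippocampal transcriptome of young mice injected with doxorubicin was compared with that of mice given saline. Polyadenylated RNA of C57BL6/J mice, an inbred laboratory strain, was sequenced in 3 libraries per group, and these 6 of the 9 libraries of the study form the comparison. All 24394 genes of the deposited count table were eligible, that is every entry except those named by a date. The sham group received saline, the doxorubicin group an injection of doxorubicin, and the 3 remaining libraries came from mice given doxorubicin with MitoQ, a mitochondria-targeted antioxidant. The labels name no transgene or deletion in any group. None of dose, interval after injection, sex and exact age is given in the sources used here. Nothing states that each library came from its own mouse, so the p-values reflect the spread of these libraries, which could be technical.

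Doxorubicin is an anthracycline used in chemotherapy. It intercalates into DNA, traps topoisomerase II on cut DNA, and is reduced and oxidised in cycles that release reactive oxygen species. It crosses the blood-brain barrier poorly, whereas the dura and the stroma of the choroid plexus have vessels without that barrier. The hippocampus holds the pyramidal neurons of CA1, CA2 and CA3 and the granule cells of the dentate gyrus. It is bordered by the meninges, the choroid plexus, the subiculum and the cortex above it.

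Library totals lay between 24.67 and 34.95 M (mega) counts in sham and between 25.53 and 28.05 M after doxorubicin. A count of 3 corresponded to 0.0838 to 0.12 CPM (counts scaled by library size to a common total, the unit of all levels below) in these 6 libraries. Markers of CA1, CA3 and CA2 and dentate granule neurons were read in every library. Among them were Prox1, a transcription factor of granule cells (83.2, 73.8 and 73.8 CPM in sham and 83.6, 80.2 and 85.8 CPM after doxorubicin), and Wfs1, an endoplasmic reticulum protein used as a CA1 marker (221, 189.6 and 173 CPM in sham and 161, 169 and 173 CPM after doxorubicin). Markers of the choroid plexus epithelium were also present, and their summed level was 303, 7230 and 276 CPM in sham and 5884, 289 and 3016 CPM after doxorubicin. Sham replicate 2 and doxorubicin replicates 1 and 3 were thus high in choroid plexus RNA and the other 3 libraries low, which cuts across the groups. The mean absolute log2 difference between libraries was 0.217 to 0.288 within groups and 0.209 to 0.32 between them, so the libraries did not separate by treatment as wholes.

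Promoter sequences of 3 of the genes that lay lower with the smallest p are shown first, because these genes recur below. Ogn encodes the small proteoglycan osteoglycin of connective tissue, Igfbp6 a binding protein for insulin-like growth factors, and Cplx3 a complexin, a regulator of transmitter release. Each run gives the 250 bases before the transcript start in RefSeq, build GRCm38.p6, from 5′ to 3′ on the strand of the gene. Ogn lies at chr13:49607765-49608014 on the plus strand, Igfbp6 at chr15:102143936-102144185 on the plus strand and Cplx3 at chr9:57606282-57606531 on the minus strand. Capitals mark the letters TATAAA and CCAAT, searched on both strands.
Ogn: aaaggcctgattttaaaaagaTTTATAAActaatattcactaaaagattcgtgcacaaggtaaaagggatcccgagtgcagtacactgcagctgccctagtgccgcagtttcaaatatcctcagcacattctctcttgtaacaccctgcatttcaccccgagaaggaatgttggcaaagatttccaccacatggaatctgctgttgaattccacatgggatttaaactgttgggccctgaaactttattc
Igfbp6: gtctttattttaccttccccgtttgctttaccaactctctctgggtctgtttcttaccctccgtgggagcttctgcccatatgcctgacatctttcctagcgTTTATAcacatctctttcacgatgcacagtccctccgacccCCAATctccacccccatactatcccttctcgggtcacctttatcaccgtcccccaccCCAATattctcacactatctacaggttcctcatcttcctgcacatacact
Cplx3: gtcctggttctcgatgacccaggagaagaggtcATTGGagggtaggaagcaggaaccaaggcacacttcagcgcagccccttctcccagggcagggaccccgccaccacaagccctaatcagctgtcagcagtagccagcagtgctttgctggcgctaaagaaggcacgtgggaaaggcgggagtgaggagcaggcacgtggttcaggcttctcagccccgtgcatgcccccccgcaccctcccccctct
The Ogn window holds TATAAA on both strands in overlapping letters far from the start, the Igfbp6 window holds TATAAA on the opposite strand and CCAAT on its own strand, and the Cplx3 window holds CCAAT on the opposite strand. TATAAA occurs on either strand in 12.4% and CCAAT in 33.8% of 32851 such windows. The G and C content is 42% for Ogn, 49.6% for Igfbp6 and 62.8% for Cplx3, beside a median of 52.4% over all windows. A match is a description of these letters and not a binding site.

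After doxorubicin, most markers of the meninges, of the neocortex and of microglia lay lower than in sham, most markers of CA3 and CA2 and most genes of the postsynaptic density lay slightly higher, and no gene passed the main test. The quasi-likelihood test of edgeR called 0 of 15296 tested genes (0%) at an adjusted p under 0.05, with 663 genes higher and 687 lower at an unadjusted p under 0.05. Limma-voom also called 0. DESeq2 called 44 genes (0.288%), 9 higher and 35 lower, and in all 44 the 3 doxorubicin libraries lay wholly above or wholly below the 3 sham libraries. Such separation was seen for 948 genes on the higher side (6.2%) and 1038 on the lower side (6.79%), 1986 genes in all (13%), and these are the background shares for every list below. Of these, 76 lay at least 1.5-fold higher and 184 at least 1.5-fold lower. DESeq2 called 106 genes without sham replicate 1, 85 of them higher, 15 without sham replicate 2 and 88 without doxorubicin replicate 1. These settings were added after the data had been seen. The median log2 fold change over all tested genes was 0.00 and the median standard error (SE) 0.10.

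**Figure D1:**
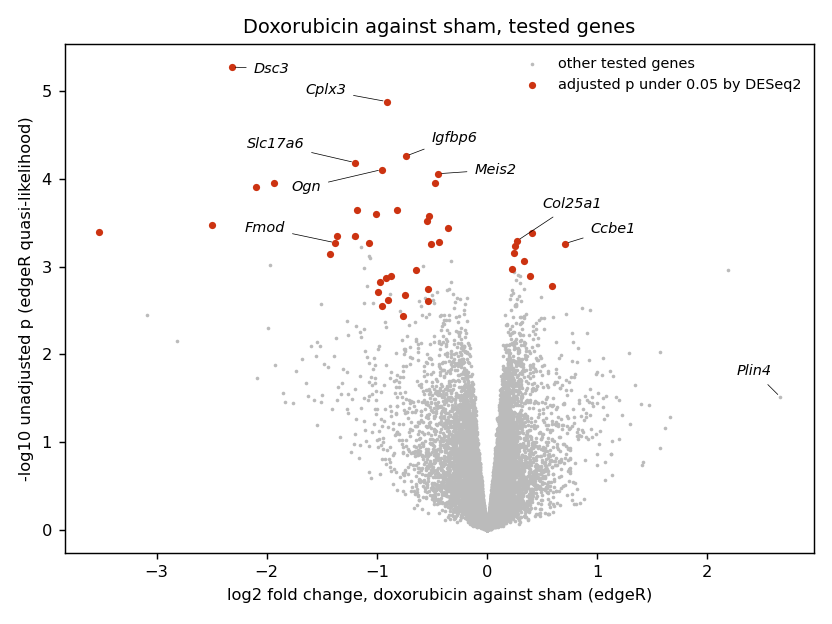
Each point is a tested gene, with the log2 fold change of doxorubicin against sham on the x axis and the −log10 unadjusted p of edgeR on the y axis. Red points are the 44 genes with an adjusted p under 0.05 by DESeq2, of which 35 lie on the lower side, while Plin4 has the highest fold change and rests on 1 library.

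The gene with the smallest p was Dsc3 (chr18:19960930-20002351, minus strand), which encodes desmocollin 3, an adhesion protein of desmosomes. It was read at 2.93, 3.44 and 2.64 CPM in sham and 0.583, 0.753 and 0.474 CPM after doxorubicin. The lowest sham library was more than 3-fold above the highest doxorubicin library, and the replicates within each group lay close together (log2 change -2.32, SE 0.28, adjusted p = 0.081 by edgeR, 3.97e-07 by DESeq2). Its relative Dsc2, a second desmocollin, lay lower in every doxorubicin library as well, at 0.466, 0.634 and 0.437 CPM against 0.704, 1.2 and 0.8 CPM in sham. Cdh1, the epithelial cadherin that desmosomal cells use in adherens junctions, was at 0.583, 0.634 and 0.583 CPM against 2.74, 1.45 and 0.92 CPM in sham (log2 change -1.50, SE 0.59, adjusted p = 0.52 by edgeR). The other desmosome genes did not share this pattern. Dsp, which encodes desmoplakin and is also a dentate granule marker, stood at 82, 83.2 and 140.4 CPM against 86.3, 74.6 and 71.2 CPM in sham, with doxorubicin replicate 3 highest. Of 13 junction genes of epithelial and arachnoid barrier cells, 7 were higher and 6 lower with a median of 0.01. Without overlap, 3 lay lower and 0 higher (23.1%, against 6.79% of all genes on the lower side and 13% in either direction). Of the others, Krt8, Krt18 and Perp were high in the libraries high in choroid plexus RNA.

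Markers of fibroblasts of the meninges and vessel walls formed the clearest group. Of 24 tested members, 23 lay lower and 1 higher, 15 were lower without overlap (62.5%, against 6.79% of all genes on that side), and the median log2 fold change was -0.61. DESeq2 called 6 of them and edgeR 0. The mean log2 level of the list, relative to the sham mean, was 0.04, 0.20 and -0.24 for sham and -0.65, -1.08 and -0.56 for doxorubicin. All 3 doxorubicin libraries lay below all 3 sham libraries, with doxorubicin replicate 2 lowest. In bulk tissue fewer cells of a type and less RNA per cell cannot be told apart, here and for every marker list that follows. The list was chosen with earlier results of these data known, and its count describes these libraries.

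Among the matrix genes of this group, Ogn (chr13:49608046-49624501, plus strand) was read at 9.55, 12.2 and 8.84 CPM in sham and 4.86, 5.04 and 5.9 CPM after doxorubicin (log2 change -0.95, SE 0.15, adjusted p = 0.21 by edgeR, 0.00014 by DESeq2). Fmod, which encodes fibromodulin, a proteoglycan that binds collagen fibrils (chr1:134037254-134048277, plus strand), was at 13.3, 15.6 and 13 CPM in sham and 5.98, 3.69 and 6.45 CPM after doxorubicin (log2 change -1.38, SE 0.28, adjusted p = 0.31 by edgeR, 0.00053 by DESeq2). In both genes every doxorubicin library lay below every sham library. The type I collagen chain Col1a1 (chr11:94936224-94953042, plus strand) was at 11.9, 8.86 and 9.92 CPM in sham and 5.44, 4.28 and 3.79 CPM after doxorubicin (log2 change -1.18, SE 0.22, adjusted p = 0.31 by edgeR, 0.00027 by DESeq2). Its partner chain Col1a2 was at 16.5, 16 and 12.3 CPM in sham and 10.6, 5.11 and 7.4 CPM after doxorubicin (log2 change -0.96, SE 0.25, adjusted p = 0.47 by edgeR, 0.027 by DESeq2). The type III collagen gene Col3a1, which is co-expressed with them in fibroblasts, was at 4.85, 3.19 and 3.6 CPM in sham and 2.56, 1.39 and 0.874 CPM after doxorubicin. In each of the 3 collagen genes the highest doxorubicin library lay below the lowest sham library, and doxorubicin replicate 1 came nearest to sham. The proteoglycan gene Bgn (biglycan) was at 17.3, 13.5 and 14.1 CPM against 22.6, 21 and 19.6 CPM in sham, and Lum (lumican) at 3.03, 2.7 and 3.1 CPM against 4.23, 3.6 and 4.04 CPM in sham. Dcn (decorin) overlapped, at 42.1, 28.3 and 10.1 CPM against 35.6, 65.8 and 39.3 CPM in sham, with doxorubicin replicate 1 inside the sham range and replicate 3 far below it.

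Transporters and enzymes of barrier fibroblasts lay lower too. Slc22a6, the organic anion transporter OAT1 (chr19:8618039-8628299, plus strand), was read at 5.4, 5.95 and 4.72 CPM in sham and 2.76, 1.55 and 1.97 CPM after doxorubicin (log2 change -1.36, SE 0.27, adjusted p = 0.31 by edgeR, 0.0022 by DESeq2). Slc6a13, a GABA and taurine transporter of the leptomeninges, was at 4.89, 4.36 and 5.57 CPM against 8.49, 9.16 and 7.56 CPM in sham. Aldh1a2, the enzyme that makes retinoic acid in the meninges, was at 2.64, 3.92 and 4.77 CPM against 9.78, 9.05 and 6.2 CPM in sham. Crabp2, a carrier of retinoic acid, was at 0.311, 0.555 and 1.46 CPM against 2.74, 1.7 and 1.64 CPM in sham. These 4 genes did not overlap between groups, and the 2 retinoid genes were lowest in doxorubicin replicate 1. Gjb2, the gap junction protein connexin 26, was at 4.51, 4.32 and 6.59 CPM against 9.39, 10.1 and 9.56 CPM in sham (log2 change -0.91, SE 0.21, adjusted p = 0.44 by edgeR, 0.022 by DESeq2). Igfbp6 (chr15:102144362-102149511, plus strand), which was not on the list, was at 15.4, 14.4 and 13.5 CPM in sham and 9.05, 8.56 and 8.38 CPM after doxorubicin (log2 change -0.74, SE 0.11, adjusted p = 0.21 by edgeR, 9.35e-05 by DESeq2), and its 3 doxorubicin values lay within 1 CPM of each other. The members shared with the choroid plexus behaved otherwise. Igf2, insulin-like growth factor 2, was at 189.9, 41.6 and 95.9 CPM against 74.3, 232 and 68.1 CPM in sham, with sham replicate 2 and doxorubicin replicate 1 highest, as they also were for Igfbp2 and Slc13a4. Ptgds, the prostaglandin D2 synthase of the leptomeninges, was at 212, 206 and 604 CPM against 428, 489 and 427 CPM in sham, so that doxorubicin replicates 1 and 2 lay below sham and replicate 3 above it.

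**Figure D2:**
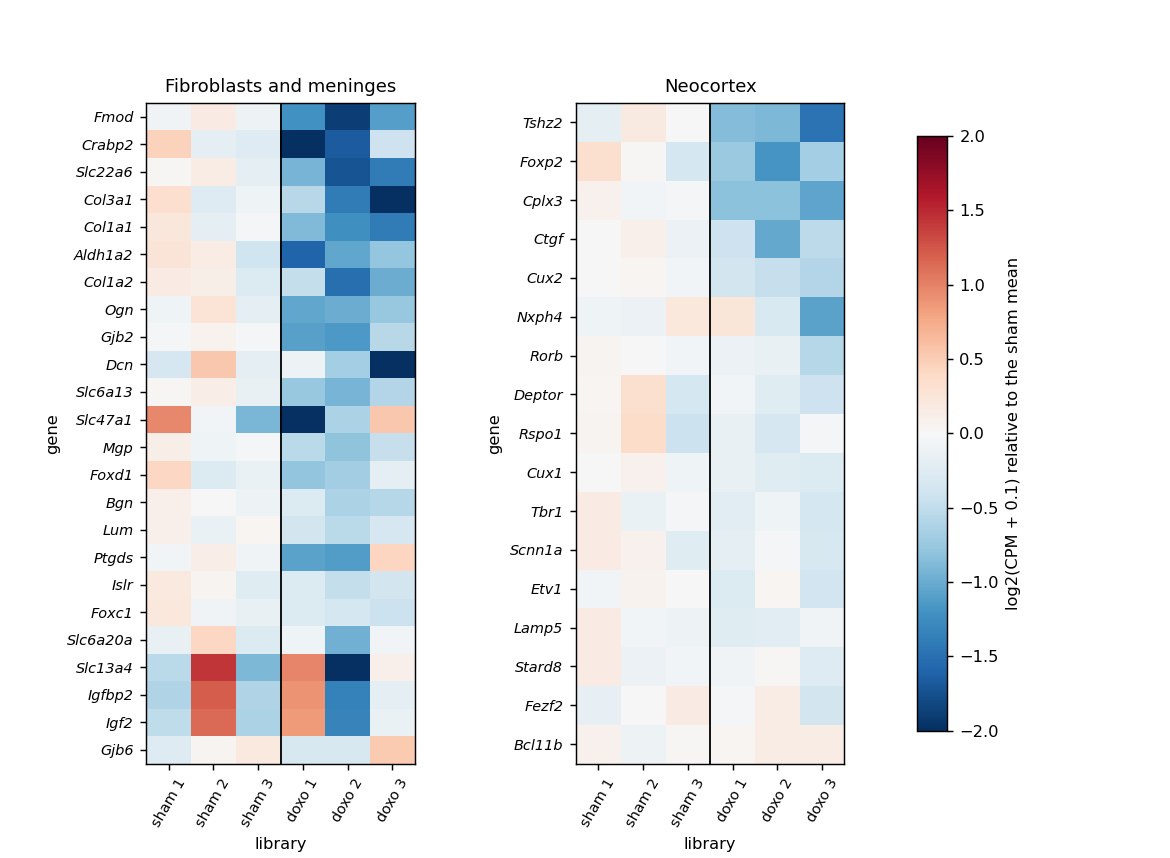
Rows are the tested marker genes of fibroblasts and meninges (left) and neocortex (right), columns the 6 libraries, and colour is log2(CPM + 0.1) relative to the mean of the sham libraries, cut at -2 and 2. Blue fills the doxorubicin columns for 15 meningeal and 7 neocortical genes without overlap, while Igf2, Igfbp2 and Slc13a4 are red in sham replicate 2 and doxorubicin replicate 1.

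Several further genes called by DESeq2 are known from connective tissue, epithelia or vessels; they were picked after their values were seen. Coch (cochlin, a secreted matrix protein) was at 3.81, 2.5 and 2.88 CPM against 5.87, 6.59 and 4.28 CPM in sham, and Pi16, a marker of adventitial fibroblasts, at 0.194, 0.0793 and 0.146 CPM against 0.782, 0.559 and 1.12 CPM in sham. The amino acid transporter Slc36a2 was near the detection limit after doxorubicin, at 0.0777, 0 and 0.0729 CPM against 0.978, 0.559 and 0.36 CPM in sham. Thbd (thrombomodulin, an anticoagulant receptor of endothelium) was at 6.49, 6.03 and 5.65 CPM against 13.8, 12.3 and 9.48 CPM in sham (log2 change -0.97, SE 0.23, adjusted p = 0.46 by edgeR, 0.015 by DESeq2). Cav2 (caveolin 2) was at 16.5, 13.8 and 13.1 CPM against 20.1, 22.4 and 20.7 CPM in sham. In none of these 5 genes did a doxorubicin library reach the lowest sham library. Brain endothelium as a list had 17 of 20 tested members lower, 0 without overlap and a median of -0.11. The pericyte and smooth muscle list had 9 of 13 lower. Without overlap, 2 lay lower and 1 higher (23.1%, against 13% of all genes in either direction). The smooth muscle gene Tagln was among the 2, at 2.29, 3.69 and 1.93 CPM against 4.89, 3.94 and 4 CPM in sham. The 1 on the higher side was Cspg4.

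Extracellular matrix genes as a whole did not lie lower together. Of 28 collagen chains, 17 were higher and 11 lower, with a median of 0.14. Without overlap, 5 lay lower and 1 higher (21.4%, against 13% of all genes in either direction and 6.79% on the lower side). DESeq2 called 4 of the 28 and edgeR 0. The median was -0.03 without doxorubicin replicate 1 and -0.03 without sham replicate 3. On the higher side stood Col25a1 (chr3:130131501-130599877, plus strand), a transmembrane collagen of neurons, at 70.4, 66.9 and 64.7 CPM in sham and 83.4, 78.8 and 81.9 CPM after doxorubicin (log2 change 0.27, SE 0.06, adjusted p = 0.31 by edgeR, 0.013 by DESeq2). Its difference was small, but the 3 doxorubicin libraries lay above every sham library and close to each other. On the lower side stood Col23a1, another transmembrane collagen, at 12.3, 17.7 and 14.7 CPM in sham and 9.71, 6.26 and 6.23 CPM after doxorubicin (log2 change -1.01, SE 0.19, adjusted p = 0.31 by edgeR, 0.00023 by DESeq2). Of 30 proteoglycans and perineuronal net genes, 7 lay lower and 3 higher without overlap (33.3%, against 13% of all genes), with a median of -0.06. This median was -0.26 without doxorubicin replicate 1 and turned to 0.04 without doxorubicin replicate 3. BMP and TGF-beta ligands, receptors and inhibitors were lower in 27 of 35 members (6 lower and 1 higher without overlap, 20%, median -0.10), and the median was -0.05 without sham replicate 2 and -0.06 without doxorubicin replicate 3. Among them the BMP antagonist Grem1 was at 2.06, 1.98 and 2 CPM against 2.82, 2.96 and 3.12 CPM in sham, while Tgfb2 lay higher at 94.5, 85.3 and 88.3 CPM against 82.4, 78.5 and 70.5 CPM in sham. Wnt pathway genes were lower in 26 of 35 members (median -0.07). Without overlap, 4 lay lower and 0 higher (11.4%, against 6.79% of all genes on the lower side and 13% in either direction). One of the 4 was the Wnt amplifier Rspo3, at 11.2, 10.9 and 10.2 CPM against 12.7, 15.4 and 13.2 CPM in sham.

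Markers of neocortical layers also lay lower. Of 17 members, 16 were lower and 7 did not overlap, all on the lower side (41.2%, against 6.79% of all genes), and the median was -0.23. The list level was 0.05, 0.04 and -0.09 for sham and -0.26, -0.34 and -0.49 for doxorubicin, with doxorubicin replicate 3 lowest. The summed level of the list was 778, 767 and 753 CPM in sham and 669, 707 and 630 CPM after doxorubicin, so the defining markers were read in all 6 libraries. Cux2 (chr5:121856366-122050102, minus strand), a homeobox gene of upper layers, was read at 38.3, 39.4 and 36.9 CPM in sham and 29.7, 27.6 and 25.5 CPM after doxorubicin (log2 change -0.47, SE 0.08, adjusted p = 0.21 by edgeR, 0.00027 by DESeq2). Cplx3 (chr9:57599992-57606281, minus strand), typical of subplate and layer 6b neurons, was at 7.98, 7.21 and 7.4 CPM in sham and 4.23, 4.2 and 3.57 CPM after doxorubicin (log2 change -0.91, SE 0.12, adjusted p = 0.1 by edgeR, 6.33e-05 by DESeq2). Tshz2, a zinc finger gene of deep cortical layers, was at 83.8, 108 and 94.2 CPM in sham and 51.8, 50.9 and 33.9 CPM after doxorubicin (log2 change -1.07, SE 0.22, adjusted p = 0.31 by edgeR, 0.037 by DESeq2). In these 3 genes the gap between the groups was wider than the range of the sham libraries. The layer 4 gene Rorb was at 28.7, 27.9 and 20.8 CPM against 32.5, 30.8 and 30.1 CPM in sham, and the layer 6b gene Ctgf at 10.7, 7.02 and 9.91 CPM against 14.4, 15.5 and 13.2 CPM in sham. Bcl11b, which CA1 and dentate granule neurons share with deep layers, was the 1 member that lay higher, at 239.7, 259.5 and 258 CPM against 248, 217 and 236 CPM in sham, and its groups overlapped. The part that neighbouring cortex in the dissected tissue plays in the other neuronal differences was not tested.

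Genes of the subiculum and retrohippocampal cortex lay lower for 10 of 12 members, the median being -0.26. Of the 10, 2 were free of overlap (16.7%, against 6.79% of all genes on the lower side and 13% in either direction). The median was -0.10 without doxorubicin replicate 3 and -0.41 without doxorubicin replicate 2. Slc17a6 (chr7:51622006-51671119, plus strand), the vesicular glutamate transporter VGLUT2, was at 22.1, 26.7 and 20.4 CPM in sham and 9.59, 12.5 and 8.09 CPM after doxorubicin (log2 change -1.20, SE 0.19, adjusted p = 0.21 by edgeR, 1.30e-06 by DESeq2). It is abundant in thalamus and subiculum and sparse in the hippocampus proper, and doxorubicin replicate 2 came nearest to sham. Rxfp1, the receptor for the hormone relaxin, was at 3.07, 4.44 and 1.82 CPM against 4.58, 5.7 and 5.44 CPM in sham. The list level was -0.13, 0.14 and -0.01 for sham and -0.25, -0.12 and -0.71 for doxorubicin, and doxorubicin replicate 2 lay within the sham range. The thalamus and habenula list, in which Slc17a6 is also a member, had 9 of 14 lower and a median of -0.11. There Prkcd, a protein kinase C of thalamic relay cells, went the other way, at 37, 23.6 and 29.8 CPM against 18.8, 17.9 and 11.2 CPM in sham (log2 change 0.91, SE 0.26, adjusted p = 0.48 by edgeR).

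**Figure D3:**
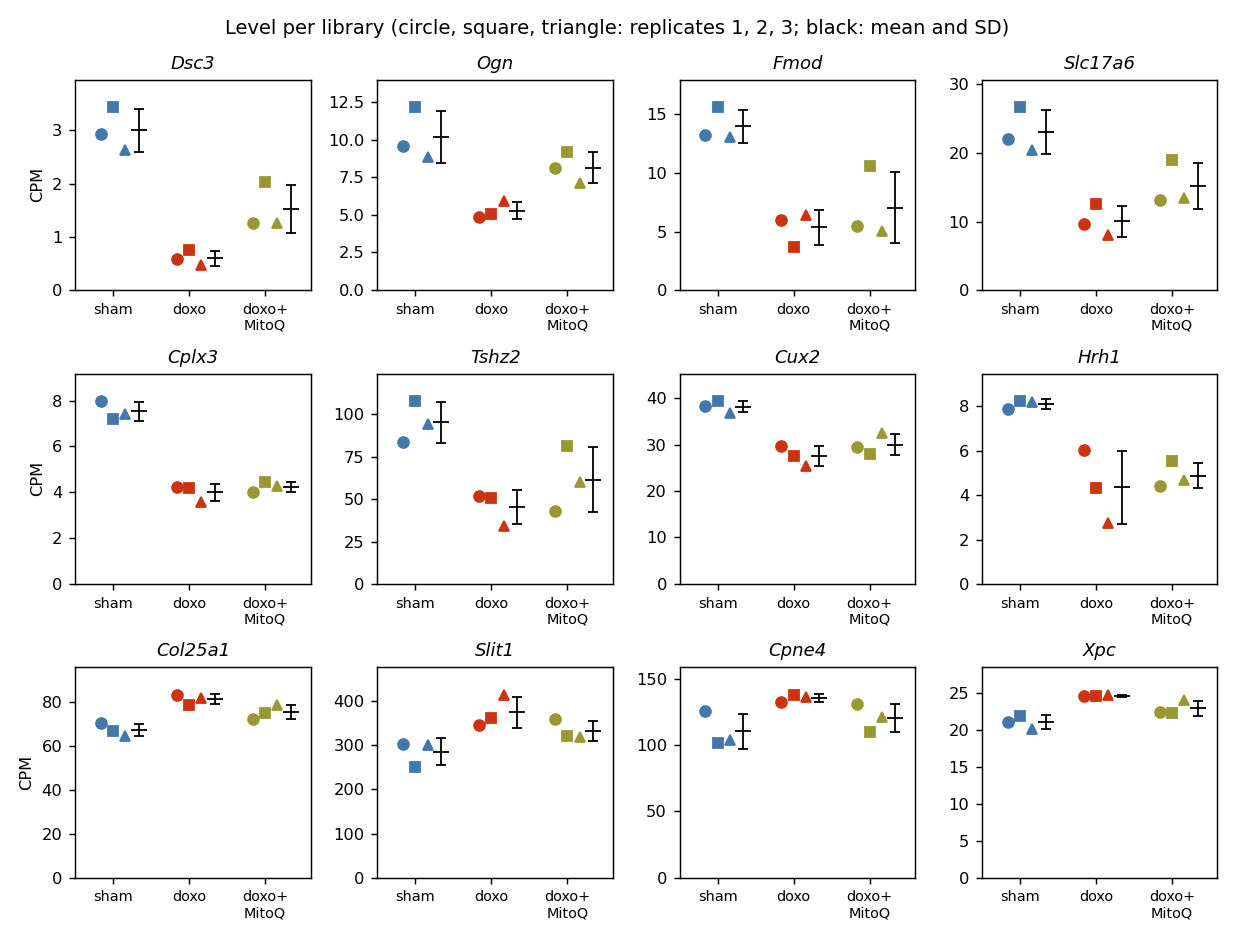
Each panel gives the CPM of 1 gene in the 9 libraries by group, with the mean and SD of 3 libraries in black, on axes that start at 0. In all 12 genes the doxorubicin libraries (red) do not overlap the sham libraries (blue), with 8 genes lower and 4 higher.

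Among the remaining neuronal genes that lay lower, Meis2 (chr2:115863064-116065839, minus strand), a homeobox transcription factor, was at 76.6, 76.9 and 70.7 CPM in sham and 58.4, 51.6 and 54.8 CPM after doxorubicin (log2 change -0.44, SE 0.07, adjusted p = 0.21 by edgeR, 0.00014 by DESeq2). Necab1, a neuronal calcium-binding protein, was at 90.9, 99.9 and 80.9 CPM in sham and 66.6, 66.9 and 55 CPM after doxorubicin (log2 change -0.53, SE 0.10, adjusted p = 0.31 by edgeR, 0.00055 by DESeq2). Rnd1, a small GTPase, was at 8.57, 10.4 and 7.88 CPM in sham and 5.71, 5.35 and 4.26 CPM after doxorubicin (log2 change -0.81, SE 0.15, adjusted p = 0.31 by edgeR, 0.002 by DESeq2). Each of these genes was separated by a gap between the groups, although the levels differed by under 2-fold. Ctxn3 (cortexin 3, chr18:57468516-57478133, plus strand) was at 2.23, 2.35 and 1.88 CPM in sham and 0.816, 0.515 and 0.364 CPM after doxorubicin (log2 change -1.93, SE 0.32, adjusted p = 0.21 by edgeR, 0.00073 by DESeq2). Mab21l1, a developmental gene named after its nematode relative, was at 1.56, 1.65 and 1.24 CPM in sham and 0.272, 0.555 and 0.219 CPM after doxorubicin, and Sowahb at 8.02, 7.24 and 5.32 CPM in sham and 3.65, 3.45 and 1.9 CPM after doxorubicin. Fxyd6, which modulates the sodium pump, was at 68.4, 59.7 and 49.4 CPM against 79.8, 86.8 and 85.8 CPM in sham, and Dusp26, a dual-specificity phosphatase, at 32.5, 35 and 33.2 CPM against 42.5, 44.3 and 41.7 CPM in sham. Cobl, an actin nucleator of dendrites, was at 21.1, 23.4 and 12.6 CPM against 32.4, 35.5 and 28.3 CPM in sham. Ddit4l, an inhibitor of mTOR signalling, was at 9.94, 9.16 and 5.76 CPM against 12.7, 14.7 and 14.3 CPM in sham, and the cadherin Cdh20 at 17.6, 19.1 and 12.5 CPM against 25.1, 22.7 and 23.6 CPM in sham. In Cobl, Ddit4l and Cdh20 doxorubicin replicate 3 was the lowest library. Mab21l1, Sowahb, Fxyd6, Dusp26, Cobl, Ddit4l and Cdh20 were called by DESeq2 and not by edgeR, and were picked after their values were seen.

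Pyramidal cell markers of the hippocampus split by field. CA3 and CA2 markers were higher for 12 of 14 genes, 3 of them without overlap (21.4%, against 6.2% of all genes on that side). Their median was 0.26, with list levels of 0.06, 0.02 and -0.08 for sham and 0.20, 0.15 and 0.38 for doxorubicin. All 3 doxorubicin levels lay above the sham levels, replicate 3 highest, and without it the median was 0.17. The copine Cpne4, a calcium-dependent membrane-binding protein, was at 125, 102 and 104 CPM in sham and 132, 138 and 136 CPM after doxorubicin (log2 change 0.30, SE 0.09, adjusted p = 0.48 by edgeR). Grik4, a kainate receptor subunit enriched in CA3, was at 64.8, 52.5 and 69.8 CPM in sham and 75.2, 76.4 and 86.7 CPM after doxorubicin (log2 change 0.35, SE 0.11, adjusted p = 0.48 by edgeR). Rgs14, a signalling regulator that marks CA2, was at 122, 111 and 95.9 CPM in sham and 128, 128 and 164 CPM after doxorubicin (log2 change 0.35, SE 0.11, adjusted p = 0.48 by edgeR). In Cpne4 sham replicate 1 came nearest to the doxorubicin libraries. CA1 markers were lower in 6 of 10 members, and the median was only -0.04. Its 3 members without overlap all lay lower (30%, against 6.79% of all genes on that side). Among them were Mpped1 (238, 238 and 219 CPM against 262, 271 and 264 CPM in sham) and Wfs1, for which sham replicate 3 and doxorubicin replicate 3 differed by less than 1 CPM. Without doxorubicin replicate 1 the CA1 median was 0.00. Dentate granule markers were higher in 12 of 14 members (median 0.13), 0 of them without overlap. Interneuron markers were lower in 16 of 21 (median -0.04), 1 without overlap (4.76%, against 6.79% of all genes on that side). It was the peptide gene Vip, at 12, 12.7 and 12.9 CPM against 13.9, 16.8 and 17.3 CPM in sham (log2 change -0.35, SE 0.14, adjusted p = 0.51 by edgeR).

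Receptor and channel genes showed small differences in both directions. Of 24 glutamate receptor subunits, 5 lay higher and 3 lower without overlap (33.3%, against 13% of all genes in either direction), with a median of 0.06. The AMPA receptor subunit Gria1 was at 1398, 1518 and 1573 CPM against 1377, 1318 and 1321 CPM in sham (log2 change 0.16, SE 0.06, adjusted p = 0.49 by edgeR). Among GABA receptor subunits Gabra3 lay lower at 55.4, 56.9 and 44.1 CPM against 64.1, 76.5 and 65.1 CPM in sham (log2 change -0.40, SE 0.11, adjusted p = 0.48 by edgeR) and Gabra5, which mediates tonic inhibition in CA1 and CA3, higher at 232, 242 and 269.5 CPM against 231, 199 and 208 CPM in sham (log2 change 0.22, SE 0.08, adjusted p = 0.49 by edgeR). The 2 alpha subunits thus lay on opposite sides, with doxorubicin replicate 3 the most distant in both. Sodium, calcium and HCN channel genes lay higher without overlap in 6 of 35 members and lower in 1 (20%, against 13% of all genes). Their median was 0.06. The calcium channel subunit Cacnb2 was at 83.2, 91.3 and 101 CPM against 73.7, 77.4 and 78.1 CPM in sham, and Cacna1d at 70.4, 66.9 and 68.2 CPM against 65, 53.7 and 59.2 CPM in sham. Of 49 potassium channel genes, 3 lay higher and 3 lower without overlap, near the background of 13%. Kcnq3 and Kcnq5, subunits of the M-current channel, were higher at 58.4, 58.9 and 54 CPM against 51.9, 43.9 and 35.2 CPM in sham and 112, 123 and 121 CPM against 106, 85.5 and 99 CPM in sham. Kcnc4 was lower at 75.8, 74.3 and 68.4 CPM against 86.2, 84.2 and 93.2 CPM in sham.

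Among monoamine and acetylcholine receptors, 2 lay higher and 3 lower without overlap of 37 tested (13.5%), a share near the background. Hrh1, the histamine H1 receptor (chr6:114397936-114483296, plus strand), was at 7.86, 8.24 and 8.2 CPM in sham and 6.02, 4.32 and 2.73 CPM after doxorubicin (log2 change -0.90, SE 0.23, adjusted p = 0.47 by edgeR, 0.041 by DESeq2). Its sham libraries were within 0.4 CPM of each other and its doxorubicin libraries widely spread. Chrna4, a nicotinic receptor subunit, was lower at 22.5, 21.5 and 20.4 CPM against 26.6, 27.4 and 24.1 CPM in sham, and the adrenergic receptor Adra1d higher at 98.4, 102 and 109.6 CPM against 84.3, 73 and 94.9 CPM in sham. Neuropeptide genes were lower in 19 of 24 members (median -0.12), and list levels were -0.07, 0.12 and -0.05 for sham and -0.18, -0.07 and -0.31 for doxorubicin. Only Adcyap1, which encodes the peptide PACAP (3.96, 4.68 and 1.68 CPM against 5.83, 7.57 and 6.92 CPM in sham), and Vip lay lower without overlap, 8.33% of the list. The list levels of sham replicate 1 and doxorubicin replicate 2 were nearly equal.

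Genes of the postsynaptic density lay slightly higher, 26 of 29 in number, with 6 without overlap (20.7%, against 6.2% of all genes on that side) and a median of 0.10. Without sham replicate 2 the postsynaptic median was 0.03. Camk2b, a subunit of the calcium- and calmodulin-dependent kinase of synapses, was at 1821, 1876 and 2619 CPM against 1761, 1470 and 1722 CPM in sham (log2 change 0.35, SE 0.13, adjusted p = 0.51 by edgeR). Homer3, a scaffold of metabotropic glutamate receptors, was at 70.1, 76.7 and 94.4 CPM against 65.2, 46.4 and 58.7 CPM in sham (log2 change 0.50, SE 0.17, adjusted p = 0.49 by edgeR). In both, sham replicate 2 was lowest and doxorubicin replicate 3 highest. Presynaptic genes were higher in 26 of 35 members, 5 higher and 2 lower without overlap (20%, against 13% of all genes in either direction). Of 10 long RNAs that stay in the nucleus, 8 lay higher, the median being 0.17. Their levels were 0.05, -0.21 and 0.16 for sham and 0.17, 0.25 and 0.03 for doxorubicin. Sham replicate 2 was again lowest there. These levels do not measure RNA quality, and the part of RNA quality in the synaptic difference was not tested.

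Further genes lay higher after doxorubicin without overlap. Slit1 (chr19:41600257-41743665, minus strand), a secreted guidance cue that repels axons, was at 304, 250.3 and 301 CPM in sham and 346, 362 and 414 CPM after doxorubicin (log2 change 0.39, SE 0.09, adjusted p = 0.43 by edgeR, 0.026 by DESeq2). Robo1, a receptor for Slit proteins, was at 81.3, 75.6 and 74.9 CPM in sham and 91.3, 96.5 and 90.3 CPM after doxorubicin (log2 change 0.26, SE 0.07, adjusted p = 0.47 by edgeR). Both the ligand and the receptor were higher in each doxorubicin library. Of 49 axon guidance genes in all, 5 lay higher and 2 lower without overlap (14.3%), a share near the background. Efna5, an ephrin ligand, was one of those that lay lower, at 8.16, 7.77 and 5.36 CPM against 11, 11.9 and 9.6 CPM in sham (log2 change -0.61, SE 0.15, adjusted p = 0.47 by edgeR).

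Fry (chr5:150118645-150497753, plus strand), the relative of the fly gene furry that shapes dendrites in that species, was at 310, 258 and 268 CPM in sham and 336, 362 and 355 CPM after doxorubicin (log2 change 0.33, SE 0.07, adjusted p = 0.38 by edgeR, 0.015 by DESeq2). Pkd1 (chr17:24549834-24596508, plus strand), the large membrane protein polycystin 1, was at 154, 137 and 154 CPM in sham and 178, 175 and 179 CPM after doxorubicin (log2 change 0.26, SE 0.05, adjusted p = 0.31 by edgeR, 0.015 by DESeq2). Clmn, the actin-binding protein calmin, was at 183, 172 and 164 CPM in sham and 204, 199 and 214 CPM after doxorubicin (log2 change 0.25, SE 0.05, adjusted p = 0.36 by edgeR, 0.015 by DESeq2). In these 3 genes the doxorubicin libraries all lay above sham, and the differences were under 1.5-fold. Tnrc6c, a partner of Argonaute proteins in silencing by miRNAs, was at 168, 179 and 171 CPM against 151, 139.8 and 152 CPM in sham (log2 change 0.23, SE 0.05, adjusted p = 0.41 by edgeR, 0.04 by DESeq2). Otud7a, a deubiquitinase, was at 76.4, 74.1 and 76.9 CPM against 66.1, 60.9 and 64.7 CPM in sham (log2 change 0.25, SE 0.06, adjusted p = 0.42 by edgeR), and Mctp1, a calcium-binding membrane protein, at 67.6, 68.5 and 73.7 CPM against 59.5, 58.6 and 54.7 CPM in sham (log2 change 0.28, SE 0.06, adjusted p = 0.43 by edgeR). Ccbe1 (chr18:66045302-66302741, minus strand), a secreted protein known from lymphatic vessel growth, was at 24.8, 19.7 and 24.2 CPM in sham and 33.4, 35.3 and 43.2 CPM after doxorubicin (log2 change 0.71, SE 0.15, adjusted p = 0.31 by edgeR, 0.0022 by DESeq2). Itga7, a laminin receptor chain, was at 26.7, 32.8 and 39.6 CPM against 25.7, 20.9 and 19.3 CPM in sham (log2 change 0.59, SE 0.14, adjusted p = 0.47 by edgeR, 0.027 by DESeq2) and was highest in doxorubicin replicate 3. Ttn, the giant muscle protein titin, was among the largest fold changes, at 1.9, 3.17 and 1.42 CPM against 1.29, 0.391 and 1.16 CPM in sham (log2 change 1.23, SE 0.55, adjusted p = 0.56 by edgeR).

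Most microglial and perivascular macrophage markers lay lower. Microglial markers were lower in 21 of 22 members, 8 of them without overlap (36.4%, against 6.79% of all genes on that side), with a median of -0.17 and list levels of 0.07, -0.07 and 0.00 for sham and -0.10, -0.15 and -0.31 for doxorubicin. Gpr34, a lysophosphatidylserine receptor of microglia, was at 9.62, 8.02 and 10.1 CPM in sham and 7.34, 6.66 and 6.59 CPM after doxorubicin (log2 change -0.43, SE 0.11, adjusted p = 0.48 by edgeR). The fractalkine receptor Cx3cr1 was at 49.8, 48.5 and 46.3 CPM against 61.8, 50.9 and 54.3 CPM in sham (log2 change -0.21, SE 0.08, adjusted p = 0.51 by edgeR), with sham replicate 2 close to the highest doxorubicin library. Perivascular macrophage and leukocyte markers were lower in 11 of 11 tested members, 2 without overlap (18.2%, against 6.79% of all genes on that side). Their median of -0.47 was -0.77 without doxorubicin replicate 1 and -0.29 without doxorubicin replicate 3. Their summed level was low, at 19.9, 20.6 and 15.9 CPM in sham and 19.2, 11.3 and 11.8 CPM after doxorubicin, and doxorubicin replicate 1 lay within the sham range. F13a1, a macrophage clotting factor subunit, was at 1.32, 0.872 and 1.27 CPM against 1.6, 1.45 and 2.12 CPM in sham, and the mannose receptor Mrc1, also without overlap, at 2.37, 1.71 and 1.86 CPM against 3.33, 3.83 and 2.72 CPM in sham. The antigen presentation gene H2-Ab1 was at 2.17, 0.674 and 0.291 CPM against 1.72, 1.45 and 0.76 CPM in sham.

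Of 14 tested cytokine and NF-kB genes 9 were lower, with a median of -0.18. Casp1, the protease that activates interleukin 1 beta, was at 0.816, 1.35 and 0.874 CPM against 2.31, 1.98 and 1.48 CPM in sham (log2 change -0.93, SE 0.26, adjusted p = 0.48 by edgeR), and Il18 at 12.5, 13 and 11.7 CPM against 14.8, 14.5 and 15.2 CPM in sham (log2 change -0.26, SE 0.09, adjusted p = 0.49 by edgeR). The cytokines Il1b and Tnf were too low to be tested. Il1b stood at 0, 0.119 and 0.146 CPM against 0.0783, 0.196 and 0.16 CPM in sham, and Tnf at 0.117, 0 and 0 CPM against 0.0783, 0.0279 and 0.04 CPM in sham. Complement genes lay lower without overlap in 5 of 16 members (31.2%, against 6.79% of all genes on that side) and higher in 0. Their median was -0.07. Serping1, the C1 inhibitor, was at 5.9, 5.31 and 6.01 CPM against 10.1, 8.13 and 7.24 CPM in sham (log2 change -0.56, SE 0.14, adjusted p = 0.47 by edgeR). Interferon-stimulated genes had a median of -0.04 and 0 of 20 without overlap. The astrocyte filament gene Gfap was at 419, 405 and 350.2 CPM against 482, 438 and 486 CPM in sham (log2 change -0.26, SE 0.07, adjusted p = 0.48 by edgeR), so all 3 doxorubicin libraries were lower. Of 18 astrocyte markers 12 were lower, 3 without overlap (16.7%, against 6.79% of all genes on that side and 13% in either direction). Oligodendrocyte markers were 9 higher and 9 lower, with 0 of 18 without overlap and a median of -0.01. Of 14 markers of their precursors, 1 lay higher and 1 lower without overlap (14.3%, near the background of 13%). The higher 1 was the proteoglycan Cspg4, at 32.5, 34.1 and 34.7 CPM against 30.2, 26.5 and 29.2 CPM in sham.

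**Figure D4:**
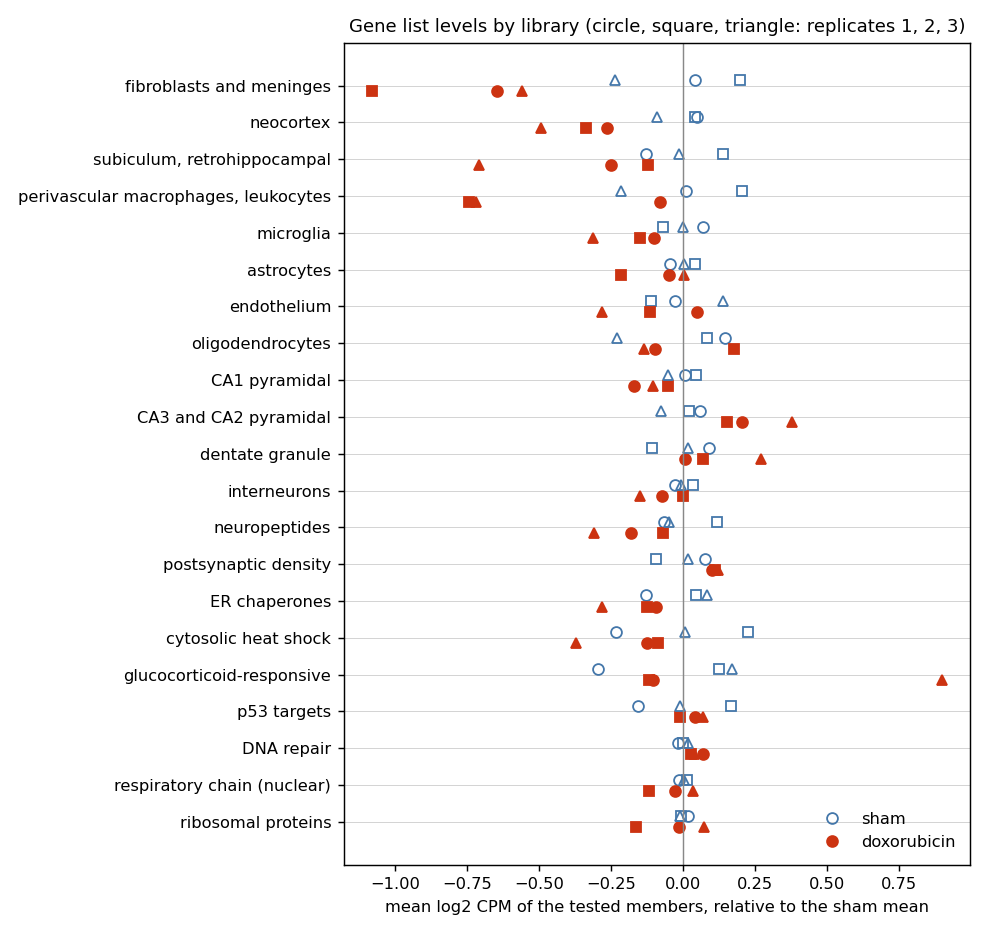
The x axis is the mean log2 CPM of the tested members of each list relative to the sham mean, with open blue symbols for the 3 sham libraries and filled red symbols for the 3 doxorubicin libraries. Fibroblast and meningeal, neocortical and microglial levels lie wholly to the left of sham, CA3 and CA2 levels to the right, and the glucocorticoid list is high in doxorubicin replicate 3 alone.

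The genes through which doxorubicin is best known to act in dividing cells differed little. Of 12 topoisomerases and enzymes that remove their DNA adducts, 6 were higher and 6 lower, 0 without overlap, with a median of 0.00. Top2b, the topoisomerase II isoform of neurons, was at 124, 127 and 114 CPM in sham and 119, 121 and 121 CPM after doxorubicin, and the groups overlapped (log2 change -0.02, SE 0.05, adjusted p = 0.95 by edgeR). Top2a, the isoform of dividing cells, was at 1.8, 1.82 and 1.52 CPM in sham and 0.932, 2.42 and 0.328 CPM after doxorubicin, with the highest and the lowest library both in the doxorubicin group (log2 change -0.50, SE 0.50, adjusted p = 0.79 by edgeR). Tdp2, which removes topoisomerase II from DNA ends, was at 14.6, 15.5 and 18.6 CPM against 15.4, 14.8 and 16.4 CPM in sham.

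Of the targets of p53, which DNA damage stabilises, 16 were higher and 11 lower, with a median of 0.03. Without overlap, 2 lay in each direction (14.8%, near the background of 13%). Trp53 itself was at 24.4, 23.6 and 29.2 CPM against 25, 23.2 and 26.7 CPM in sham. Ccng1, a cyclin that p53 induces in many tissues, lay slightly lower, at 85.6, 95.2 and 84.2 CPM in sham and 74.3, 83.4 and 73.5 CPM after doxorubicin (log2 change -0.20, SE 0.08, adjusted p = 0.52 by edgeR). Phlda3, an AKT inhibitor induced by p53, overlapped at 14.3, 16.1 and 13.8 CPM against 16.8, 15.6 and 15.9 CPM in sham. Gdf15, a stress cytokine induced by p53, was too low to be tested, at 0.233, 0 and 0.182 CPM against 0.0783, 0.559 and 0.12 CPM in sham. Xpc, the damage sensor of nucleotide excision repair and a p53 target, lay higher, at 21.1, 22 and 20.2 CPM in sham and 24.6, 24.6 and 24.8 CPM after doxorubicin (log2 change 0.23, SE 0.07, adjusted p = 0.48 by edgeR). Ercc5, the nuclease XPG of the same repair pathway, also lay higher, at 24.6, 22.9 and 23.5 CPM in sham and 27.1, 30.4 and 29.9 CPM after doxorubicin (log2 change 0.30, SE 0.07, adjusted p = 0.43 by edgeR). Both repair genes were above sham in each doxorubicin library. Trp53bp1, a mediator of double-strand break repair, was at 143, 146 and 147 CPM against 131, 125 and 133 CPM in sham (log2 change 0.17, SE 0.04, adjusted p = 0.48 by edgeR). The list of 30 DNA damage signalling and repair genes holds Trp53bp1 but neither Xpc nor Ercc5. Of its members, 16 were higher and 14 lower, with a median of 0.03. Without overlap, 3 lay higher and 0 lower (10%, against 6.2% of all genes on the higher side and 13% in either direction). Without sham replicate 2 the median was 0.00. List levels were -0.017, -0.001 and 0.018 for sham and 0.07, 0.027 and 0.039 for doxorubicin. All 3 doxorubicin levels thus lay slightly above the sham levels. The BCL2 family and caspases had a median of 0.00, with Bok, a BCL2 relative, higher at 63.1, 65.5 and 78.8 CPM against 60.9, 46.3 and 48.4 CPM in sham (log2 change 0.42, SE 0.15, adjusted p = 0.49 by edgeR) and the survival gene Bcl2 lower at 16.8, 16.6 and 12.2 CPM against 17.1, 22.4 and 17.4 CPM in sham (log2 change -0.32, SE 0.14, adjusted p = 0.55 by edgeR).

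Genes that export or metabolise anthracyclines were 9 higher and 3 lower. Only 1 of the 12 tested members did not overlap (8.33%, against 13% of all genes in either direction). This was Abcc1, the efflux pump MRP1, at 25.6, 26.1 and 23.9 CPM in sham and 31.3, 28.8 and 29.2 CPM after doxorubicin (log2 change 0.24, SE 0.07, adjusted p = 0.48 by edgeR). Abcb1a, the P-glycoprotein of brain endothelium, overlapped at 25.6, 23.8 and 24.9 CPM against 25.1, 22.1 and 28.9 CPM in sham, and Cbr3, a carbonyl reductase of anthracyclines, at 8.08, 8.37 and 8.89 CPM against 8.61, 9.5 and 10.2 CPM in sham (log2 change -0.16, SE 0.10, adjusted p = 0.66 by edgeR). Antioxidant enzymes and Nrf2 targets were lower in 19 of 25 members (median -0.05), 2 in each direction without overlap (16%, against 13% of all genes). Slc7a11, the cystine importer needed for glutathione synthesis, was at 39.3, 37 and 20.3 CPM against 47.2, 45.4 and 48.7 CPM in sham (log2 change -0.55, SE 0.20, adjusted p = 0.51 by edgeR), with doxorubicin replicate 3 far below the other 5 libraries. Gclc, the catalytic subunit of glutamate-cysteine ligase, was slightly higher at 65.9, 67.6 and 70.7 CPM against 61.9, 64.1 and 61.7 CPM in sham (log2 change 0.12, SE 0.05, adjusted p = 0.52 by edgeR).

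Nuclear genes of the respiratory chain were lower in 53 of 70 members, but by a median of only -0.03, and 9 lay lower and 1 higher without overlap (14.3%). The complex III subunit Uqcrh was at 129, 131 and 130 CPM in sham and 117, 116 and 115 CPM after doxorubicin (log2 change -0.17, SE 0.05, adjusted p = 0.48 by edgeR), a small gap with little spread in either group. The list levels were -0.02, 0.01 and 0.00 for sham and -0.03, -0.12 and 0.04 for doxorubicin, with doxorubicin replicate 2 lowest and replicate 3 highest, and without replicate 2 the median was 0.00. In ribosomal protein genes doxorubicin replicate 2 was again lowest and replicate 3 highest, with levels of 0.02, -0.01 and -0.01 for sham and -0.01, -0.16 and 0.07 for doxorubicin and 4.17% of members without overlap. Of 27 tested genes of mitochondrial dynamics and stress, 15 were higher and 12 lower, with a median of 0.02. Without overlap, 3 lay higher and 2 lower (18.5%, against 13% of all genes in either direction). Park2 (parkin, a ubiquitin ligase of mitophagy) was higher at 7.81, 7.61 and 9.58 CPM against 6.42, 5.87 and 6.16 CPM in sham (log2 change 0.44, SE 0.13, adjusted p = 0.48 by edgeR), and the mitochondrial fusion gene Mfn2 at 302, 302 and 305 CPM against 293, 262 and 283 CPM in sham (log2 change 0.12, SE 0.05, adjusted p = 0.56 by edgeR). Atf5, another member, was lower at 29.1, 29.7 and 31.5 CPM against 34.9, 33.3 and 33.3 CPM in sham (log2 change -0.17, SE 0.06, adjusted p = 0.51 by edgeR). Chaperones of the endoplasmic reticulum were lower in 21 of 25 members (median -0.14). Of the 21, 3 did not overlap (12%, against 6.79% of all genes on the lower side and 13% in either direction). The median was -0.09 without doxorubicin replicate 3, -0.09 without sham replicate 3 and -0.21 without sham replicate 1. Those 3 include the calcium-binding chaperone Calr at 435, 447 and 343 CPM against 458, 509 and 499 CPM in sham (log2 change -0.26, SE 0.09, adjusted p = 0.49 by edgeR). Cytosolic heat shock genes were lower in 16 of 17, 0 without overlap.

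Most activity and clock genes overlapped, though the shares differed. Of 23 immediate early genes, 1 lay higher and 1 lower without overlap (8.7%, against 13% of all genes). Of 18 clock genes, 1 lay higher and 3 lower without overlap (22.2%), with a median of -0.04. The immediate early genes Fos and Arc, induced by neuronal activity, were at 28.4, 42.7 and 20.9 CPM against 21.8, 42.2 and 24.9 CPM in sham and 289, 354 and 166 CPM against 171, 339 and 219 CPM in sham. In both genes sham replicate 2 and doxorubicin replicate 2 were high, so spread within a group exceeded the difference between groups. Ier5, another member of that list, lay lower at 45.3, 51.4 and 41.1 CPM against 57.5, 66.6 and 53.6 CPM in sham (log2 change -0.37, SE 0.11, adjusted p = 0.48 by edgeR). The neurotrophin Bdnf was at 60.6, 65.3 and 51 CPM against 64.4, 56.9 and 47.3 CPM in sham (log2 change 0.07, SE 0.12, adjusted p = 0.89 by edgeR). The clock output factor Hlf was at 188, 209 and 205 CPM in sham and 155, 159.6 and 166 CPM after doxorubicin (log2 change -0.32, SE 0.08, adjusted p = 0.46 by edgeR), and the clock repressor Cry2 was higher at 164, 158 and 185 CPM against 152, 146 and 145 CPM in sham (log2 change 0.20, SE 0.06, adjusted p = 0.48 by edgeR).

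Doxorubicin replicate 3 stood apart from the other 5 libraries. Of 13870 genes compared, 17 were at least 2-fold above and 27 at least 2-fold below all 5 others in that library, against 0 to 3 above and 3 to 10 below in each of the others. Plin4, a lipid droplet protein, was at 1.6, 3.19 and 4.52 CPM in sham and 1.98, 2.14 and 54.8 CPM after doxorubicin. Its log2 fold change of 2.67 became -0.59 without that library. The hypoxia-related factor Hif3a was at 4.26, 4.92 and 7.8 CPM in sham and 3.57, 3.21 and 30 CPM after doxorubicin, and Etnppl, a phospholyase of astrocytes, at 9.7, 12.6 and 17.6 CPM in sham and 11.7, 15.5 and 77.6 CPM after doxorubicin. The sulfotransferase Sult1a1 was at 5.44, 6.01 and 7.12 CPM in sham and 4.58, 4 and 23.6 CPM after doxorubicin. In doxorubicin replicates 1 and 2 Plin4 and Etnppl lay within the sham range, and Hif3a and Sult1a1 lay below every sham library. Glucocorticoid-responsive genes, to which Plin4, Hif3a and Sult1a1 belong, had list levels of -0.30, 0.13 and 0.17 for sham and -0.11, -0.12 and 0.90 for doxorubicin, and their median of 0.17 became -0.10 without replicate 3. Fkbp5, a co-chaperone of the glucocorticoid receptor, was at 69.9, 65.6 and 77.2 CPM in sham and 62.3, 70 and 120.1 CPM after doxorubicin.

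The same library was low in genes of dividing cells and of several other kinds. Mki67, a proliferation marker, was at 2.19, 2.32 and 2.24 CPM in sham and 2.17, 2.3 and 0.51 CPM after doxorubicin, and the other 5 libraries were nearly equal. Dcx, a marker of newborn neurons, was at 19.9, 16.7 and 17.8 CPM in sham and 18.9, 19.5 and 12.5 CPM after doxorubicin (log2 change -0.10, SE 0.15, adjusted p = 0.88 by edgeR), and Nes, the intermediate filament nestin of progenitors, at 17, 14.9 and 17.3 CPM in sham and 15.2, 13.1 and 7.65 CPM after doxorubicin. Newborn neuron and progenitor genes were lower in 15 of 18 members (median -0.22, -0.08 without replicate 3 and -0.34 without replicate 1), but their levels were 0.04, -0.01 and -0.03 for sham and 0.08, -0.08 and -0.62 for doxorubicin. Doxorubicin replicate 1 thus lay above all sham libraries and replicate 3 far below. Stmn1, a microtubule regulator of immature neurons, was the 1 member lower without overlap, at 55.2, 62.6 and 47 CPM against 68.8, 74 and 68.3 CPM in sham (log2 change -0.36, SE 0.11, adjusted p = 0.48 by edgeR), and Neurog2, a proneural factor, the 1 higher, at 1.71, 1.31 and 1.31 CPM against 1.25, 0.81 and 1.24 CPM in sham. Tnc, a matrix glycoprotein of astrocytes, was at 9.15, 12.2 and 10.8 CPM in sham and 10.8, 9.83 and 2.95 CPM after doxorubicin, and Cd93, an endothelial receptor, at 10.2, 10 and 9.72 CPM in sham and 9.09, 7.18 and 2.26 CPM after doxorubicin. These genes outside the reference list were picked after their values were seen. What sets this library apart was not tested.

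**Figure D5:**
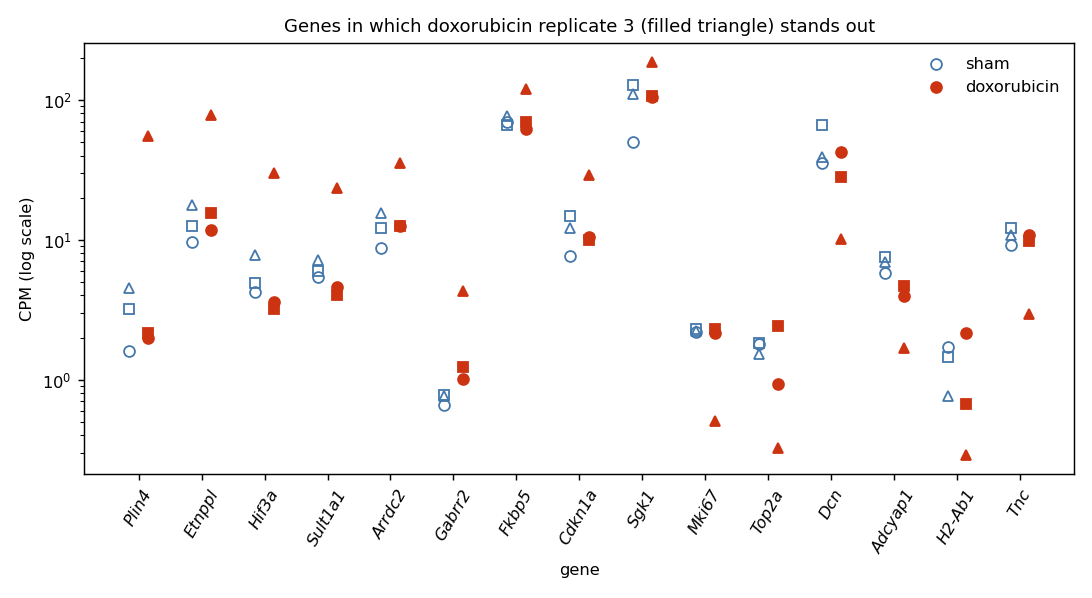
Points give the CPM (log scale) of 15 genes in the 3 sham libraries (open blue) and the 3 doxorubicin libraries (filled red), with circles, squares and triangles for replicates 1, 2 and 3. The filled triangle of doxorubicin replicate 3 lies above all other points for the first 9 genes and below them for the last 6.

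The third group of the study, doxorubicin with MitoQ, used none of these 6 libraries and gives a further set of 3 values for the same genes after doxorubicin. Dsc3 was at 1.26, 2.04 and 1.27 CPM there, below the lowest sham library and above the highest doxorubicin library. Ogn was at 8.1, 9.17 and 7.12 CPM and Fmod at 5.5, 10.6 and 5.09 CPM, so that the libraries overlapped sham for Ogn and lay below it for Fmod. Slc17a6 was at 13.2, 19 and 13.4 CPM, again below each sham library. Cplx3 was at 4.02, 4.44 and 4.27 CPM and Cux2 at 29.6, 27.9 and 32.4 CPM, close to the doxorubicin values in both genes. Plin4 was at 4.87, 2.5 and 2.77 CPM, near the sham values. Slit1 was at 359, 320.1 and 318 CPM and Xpc at 22.4, 22.4 and 24.1 CPM. A comparison of this group with either of the others would share libraries with the one described, so no test was made of these values.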

How the data were processed

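Polyadenylated RNA of postmortem hippocampus was extracted with Trizol and spin columns and made into TruSeq libraries, per the labels' protocols. The authors deposited raw read counts per gene symbol; their tools included STAR and DESeq2 with the mm10 genome, per the submitters' processing notes, while none of versions, annotation, counting program and strand setting is given in the sources used here. Without the strand setting, overlapping and antisense genes cannot be told apart. The table has 24421 entries, 27 of them named by a date (0.309% to 0.322% of counts), which stayed out of library sizes and tests; 24394 genes remain, 4618 without a count in any library, and 0 columns belong to no sample.

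Groups and replicate numbers were taken from the sample titles. Genes were kept by filterByExpr of edgeR (minimum count 10), leaving 15296, and scaled by TMM. All 9 libraries entered one quasi-likelihood fit in edgeR 4.0.16 (R 4.3.3), and genes were called where the Benjamini-Hochberg adjusted p lay under 0.05. Biological variation (edgeR common estimate) came to 11.4%. Each SE was obtained by dividing the size of the log2 change by the root of the F value. With 3 libraries against 3, no exact test can go below a p of 0.1. Levels are CPM on TMM-adjusted library sizes. List levels are means of log2 CPM with a prior count of 1. How far 1 library stood from the other 5 was read from log2 CPM of tested genes whose mean reached 1 CPM. Alternatives used DESeq2 1.42.0, limma-voom (limma 3.58.1), other scaling and filters, only the 6 libraries, a replicate block, an adjusted p under 0.1, and each library left out. DESeq2 gave no adjusted p for 3 genes. Plots were made in Python 3.11.15 with matplotlib 3.10.9. Coordinates are GENCODE M21 on GRCm38 (127 of 128 named genes matched) and promoters RefSeq.

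The comparison and the 57 lists (1256 genes, 1250 in the table) were chosen with earlier results of these data known, so lists got no test; lists share genes. Genes were named by rule: the 12 smallest edgeR p in each direction with at least 1 CPM and groups not overlapping, up to 3 such list members at an unadjusted p under 0.05, the 5 largest fold changes and the 5 smallest DESeq2 adjusted p in each direction, and 14 reference genes. Other genes are list members given as examples, or are said to be picked after their values were seen. Some genes picked by the rule are not reported here.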

Additional observations from a re-analysis of the deposited data

How the results depend on the processing

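EdgeR called 0 genes with median-of-ratios size factors, with a 1 CPM filter, with only the 6 libraries, and without any single library (0 in each case); 1 gene passed without a low-count filter and 1 at an adjusted p under 0.1, both Dsc3. DESeq2 called 44. Same-numbered sham and doxorubicin libraries had correlations of deviations of -0.26, -0.50 and -0.05. Sham replicate 2 and doxorubicin replicate 1, both high in choroid plexus RNA, had 0.49. Deviations from a mean of 3 libraries constrain each other, so these values cannot decide whether replicate numbers pair the libraries. With the replicate block edgeR called 2 genes, Dsc3 and Slc17a6. The DESeq2 count was 15 to 106 when a library was left out, and 43 with only the 6 libraries, of which 30 were among the 44. Between 12 and 32 of the 44 genes were called again when a library was left out. Genes without overlap were 3088 to 3853 when a library was left out, since 3 values against 2 overlap less often by construction, and 1813 to 2248 under the other alternatives. Lists whose levels did not overlap were 8 of 57 (5 lower and 3 higher), and 9 to 16 with a library left out. Among single tested genes 13% did not overlap, a share near that of the 8 lists. Of 125 tested named genes 0 changed direction under the 7 alternatives that kept all libraries of the comparison. Most of them were named because their groups did not overlap and their p was small in these same libraries. Their direction could therefore hardly change, and the 0 does not measure robustness. When a library was left out, up to 3 named genes changed direction, and up to 13 of 56 list medians did. The genes that changed were Plin4 and the reference genes Trp53, Abcb1a, Bdnf, Fos, Arc and Dcx. The SE of the log2 fold change had a median of 0.10 over all tested genes and was larger in genes of few counts (0.28 for Dsc3, whose log2 change of -2.32 was not called by edgeR).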
